A study of Ictalurus punctatus with 24 samples.

Results

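Lysozyme c (lysc) was followed as 1 of the 63022 counted features, in liver and intestine from channel catfish (Ictalurus punctatus) after 10 weeks on diets with or without frass, the residue of black soldier fly larval rearing. The row, rna-NM_001200789.1, was chosen by its RefSeq transcript, which is the only lysc transcript in the annotation. The study had itself reported lysozyme from these libraries as upregulated in the high-frass intestine and liver. Its diet difference is therefore not an independent finding here. The control diet held 0 g/kg frass, the low-frass diet 50 g/kg and the high-frass diet 300 g/kg. Each diet had 4 libraries per tissue, and each library was made from the pooled tissue of 3 fish according to the sample labels or 4 fish from 1 aquarium according to the methods. No strain, sex or age of the fish was given in the labels, while the methods name fingerlings of the Marion strain. Intestine and liver libraries carried the same pool codes.

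Lysozyme c is a secreted enzyme that cuts the peptidoglycan of bacterial cell walls and belongs to the innate immune defence of fish mucosa. In vertebrates it is made chiefly by macrophages, neutrophils and some epithelial cells. Goose-type lysozyme, encoded by lyg, has the same substrate but a separate sequence family.

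In Coco_2.0, the catfish assembly, lysc (gene 100528519) is a protein-coding gene at chr16:19200988-19204860, which spans 3873 bp. No annotated gene overlaps it, and with a single transcript it had no sister row to split its reads. The nearest gene, macir, is 4092 bp away. In the high-frass against the control intestine macir had a log2 fold change of 0.06 (SE 0.32), and LOC108276597, on the other side at 56988 bp, had 0.07 (SE 0.34). Both values lay within 1 SE of 0.

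Library totals ran from 12534783 to 17371695 counts for the intestine and from 10494755 to 15604418 for the liver, and no pair of libraries held identical values. Following the study, liver replicate 3 of the high-frass and of the low-frass diet stayed out of the fits. The high-frass library had been removed for low transcript integrity. Low-frass liver replicate 3 had been removed by the study as an outlier on the first principal component. It also stood apart in its markers. In CPM, the counts scaled to a common library total, it had 508 of hpxa, the haem scavenger hemopexin. It had 4092 of ctsba, the lysosomal protease cathepsin B. The means in the 10 fitted livers were 156796 and 232. For marker values this library stays on its library total throughout, while the fitted livers are scaled by TMM, described below. The 12 intestine libraries also fell into 2 sets, described below, which were spread unevenly over the diets.

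In the control intestine, replicates 1 to 4 had 84, 9, 22 and 22 lysc counts. In the low-frass intestine the counts were 8, 9, 363 and 19. In the high-frass intestine they were 766, 277, 857 and 40. High-frass replicates 1, 2 and 3 and low-frass replicate 3 were thus the 4 highest libraries, while high-frass replicate 4 lay between the control libraries. Scaled by TMM, which corrects CPM for differences in library composition, the values in replicate order were 4.55, 0.803, 1.45 and 1.55 CPM in the control, 0.590, 0.619, 18.4 and 1.32 CPM in the low-frass and 48.8, 16.0, 43.7 and 3.30 CPM in the high-frass intestine. The highest library was 82.6 times the lowest. Of all 2476 lysc counts in the intestine, 76.7% came from high-frass replicates 1, 2 and 3.

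**Figure D1:**
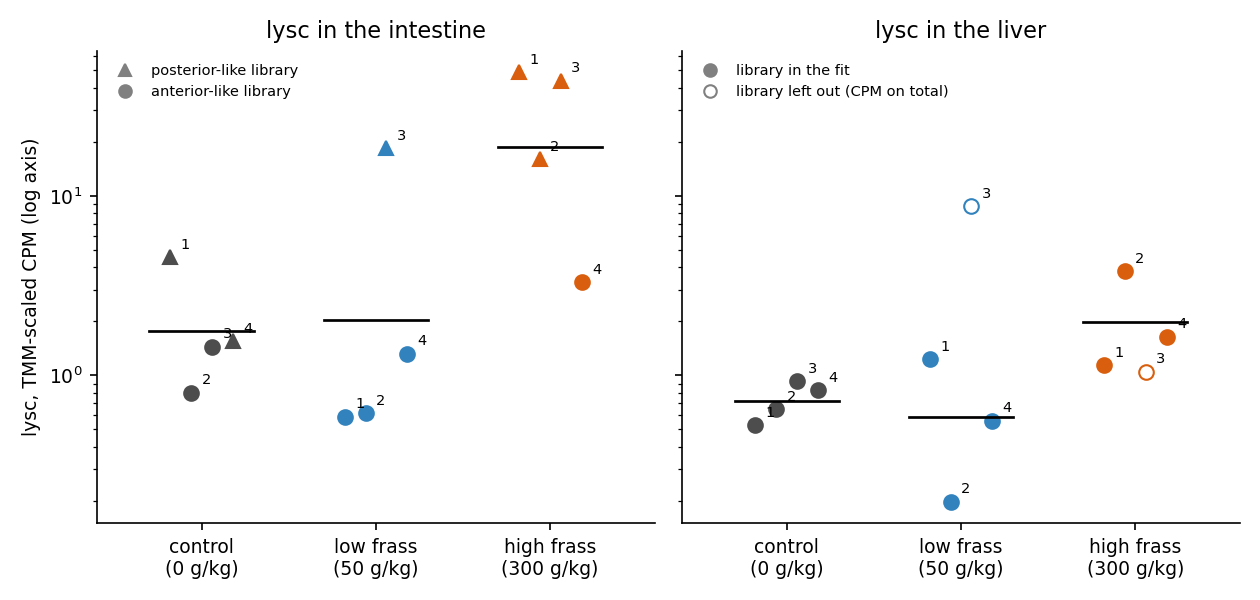
lysc in each library of the intestine (left) and liver (right), as TMM-scaled CPM on a log axis, by diet from 0 to 300 g/kg frass. Numbers are replicates, and bars are means on the log2(CPM + 0.5) scale over the fitted libraries. Open symbols are the 2 liver libraries left out, which are on CPM of the library total instead. The high-frass intestine replicates 1, 2 and 3 lie between 16.0 and 48.8 CPM, and low-frass replicate 3 lies beside them at 18.4 CPM.

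Mean lysc was 27.9 ± 21.8 CPM in the high-frass intestine and 2.09 ± 1.67 CPM in the control intestine (SD, n = 4 each), a ratio of means of 13.4. The high-frass library was the higher in 15 of 16 pairs of libraries. In edgeR's quasi-likelihood fit of the 3 diets the log2 fold change was 3.72 (SE 1.21), which ranked 5 from the top of 10401 features (edgeR, Benjamini-Hochberg adjusted p = 0.998). At the study's cutoffs, an adjusted p under 0.05 with a fold above 2, the edgeR fit called 0 features, or 0% of those tested. The study adjusted its DESeq2 p-values with fdrtool, so its calls and those given here are not directly comparable. An unadjusted p under 0.05 with a higher level in high frass, as lysc had, was found in 1.81% of features. The exact two-sided permutation test on log2(CPM + 0.5) gave p = 0.0571, and 0.171 after adjustment over the 6 diet comparisons of lysc, where 4 against 4 libraries can reach 0.0286. The call depended on the method. DESeq2 on the high-frass and control libraries alone gave lysc a log2 fold change of 3.74 with an adjusted p of 0.00235 and called 8 features, 0.0818% of those tested. DESeq2 on all 3 diets gave 3.75 with an adjusted p of 0.187 and called 2, or 0.0192%. Over 18 alternative settings the adjusted p ran from 0.00235 to 0.99998. Without control replicate 1 the edgeR value was 4.49.

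The low-frass intestine averaged 5.23 ± 8.78 CPM and the control intestine 2.09 ± 1.67 CPM (SD, n = 4 each). This mean rested on low-frass replicate 3, since the other 3 low-frass libraries lay between 0.590 and 1.32 CPM. The median was 0.971 CPM in the low-frass intestine and 1.5 CPM in the control intestine. The fitted log2 fold change was 1.32 (SE 1.13, edgeR adjusted p = 0.9996). Without low-frass replicate 3 it turned to -1.36 (SE 0.89), and the exact permutation p over all 8 libraries was 0.971. At an unadjusted p under 0.05, 0.413% of features were higher in low frass. Therefore, no direction of lysc could be given for the low-frass intestine.

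Between the frass diets, the high-frass intestine had a ratio of means of 5.34 over the low-frass intestine and was higher in 14 of 16 pairs. The log2 fold change was 2.40 (SE 1.13, edgeR adjusted p = 0.567), and the exact permutation p was 0.0857. Without low-frass replicate 3 the value was 5.09, with an adjusted edgeR p of 0.264. In this comparison 5.11% of features were higher in high frass at an unadjusted p under 0.05.

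**Figure D2:**
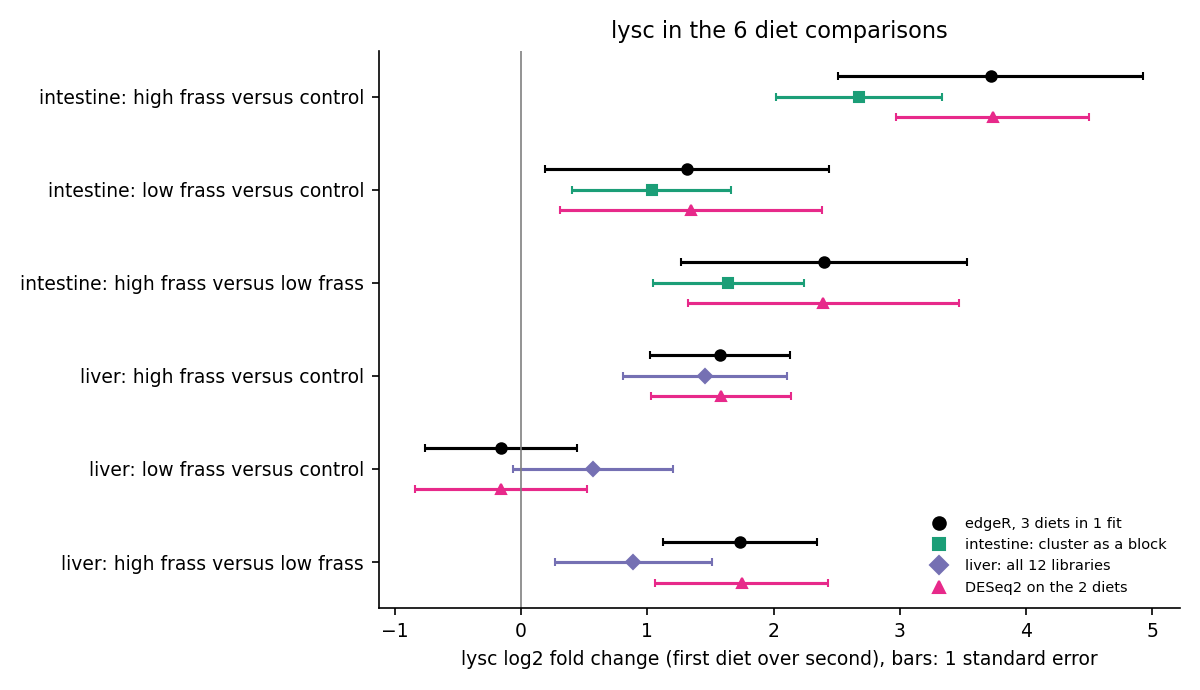
log2 fold changes of lysc in the 6 diet comparisons, the first diet over the second, with bars of 1 standard error. The high-frass against control values in the intestine are 3.72 in the edgeR fit, 2.67 with the set of libraries as a block and 3.74 in DESeq2 on the 2 diets. In the liver the low-frass value changes sign, to 0.57, when all 12 libraries enter. These include low-frass replicate 3, which stood apart in its markers.

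The intestine libraries were grouped by their whole expression profile, with lysc left out, into 2 sets of 6. The set with less of slc10a2, the ileal bile acid transporter, is called anterior-like here. All 14 tested genes of the anterior gut list had the higher mean in it, against 5482 of all 10401 features. Among them were slc15a1b, an intestinal peptide transporter, and rbp2a, which carries retinol in absorptive cells. Of the 16 tested posterior gut genes, 12 were higher in the other, posterior-like set, against 4919 of all 10401 features. The posterior gut list itself holds slc10a2, the gene used for the names. The posterior-like set held control replicates 1 and 4, low-frass replicate 3 and high-frass replicates 1, 2 and 3. The anterior-like set held control replicates 2 and 3, low-frass replicates 1, 2 and 4 and high-frass replicate 4. Control replicate 3 was mixed in its markers, with summed lists of 28052 CPM for the anterior and 13584 CPM for the posterior gut. Its posterior gut sum lay inside the posterior-like range of 10929 to 13868 CPM, whereas the other anterior-like libraries had 4010 to 8035 CPM. The labels name no gut segment, and the sets come from the data, so levels between them are given without a test. The sets kept their members under complete linkage, on library totals and without the gut lists.

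lysc ran from 1.55 to 48.8 CPM with a median of 17.2 CPM in the posterior-like libraries, against 0.590 to 3.30 CPM with a median of 1.06 CPM in the anterior-like libraries. The posterior-like libraries held 95.7% of the intestinal lysc counts. The ranges overlapped, because control replicate 4 of the posterior-like set, at 1.55 CPM, lay below high-frass replicate 4 of the anterior-like set, at 3.30 CPM. Over all 10401 features, 4919 had the higher mean in the posterior-like set, and 963 of them were higher there without overlap.

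Within the posterior-like set, the 3 high-frass libraries had 277 to 857 counts and the 2 control libraries had 84 and 22, and the mean log2 CPM differed by 3.36. The single low-frass library, with 363 counts, lay inside the high-frass range. Within the anterior-like set, the 2 control libraries had 9 and 22 counts, the 3 low-frass libraries 8 to 19 and the single high-frass library 40. High-frass and control libraries, at 3 against 2 and 1 against 2, are too few for a test within a set. The share of all features with high frass above control in both sets was not computed. The order of these libraries is therefore not read as particular to lysc. With the set entered as a block in edgeR, the high-frass against control log2 fold change was 2.67 (SE 0.66, edgeR adjusted p = 0.734). The block values were 1.03 for low frass against control and 1.64 for high against low frass.

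**Figure D3:**
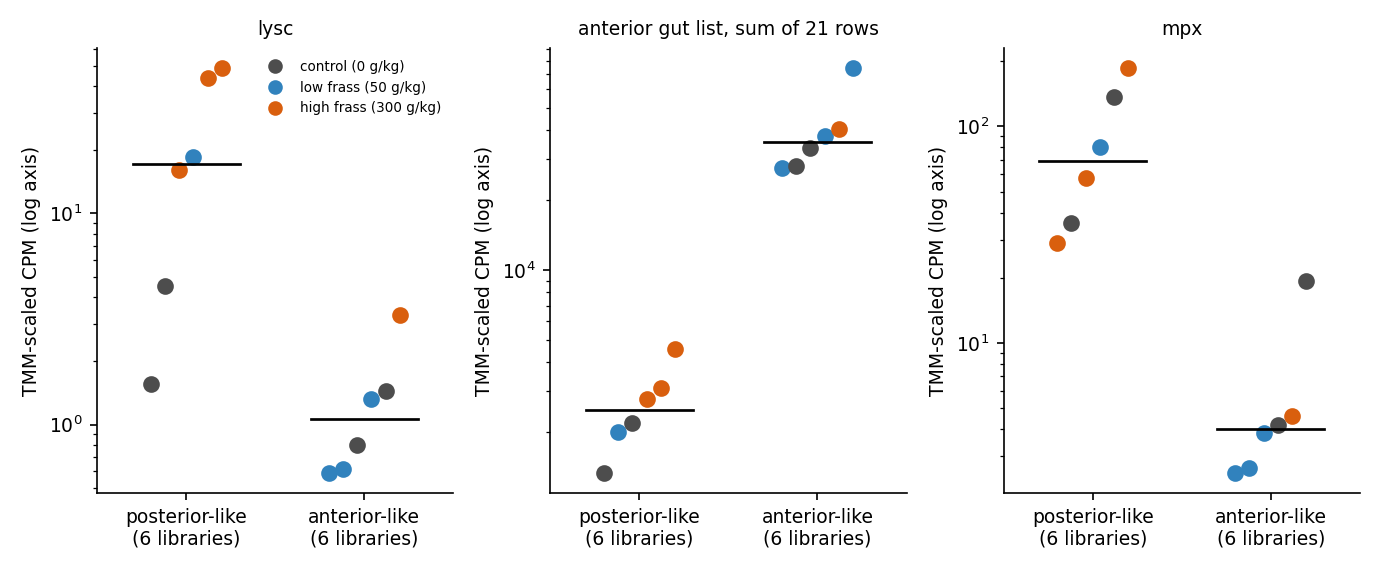
lysc (left), the summed anterior gut list (middle) and mpx (right) in the posterior-like and anterior-like intestine libraries, as TMM-scaled CPM on log axes, coloured by diet, with bars at the medians. The lysc ranges of 1.55 to 48.8 CPM and 0.590 to 3.30 CPM overlap, while those of the anterior gut list and mpx do not.

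Even for libraries of the same diet, lysc was among the more variable features. Its residual SD of log2 CPM around the diet means was 1.58 in the intestine, against a median of 0.43 over all features, which put it at percentile 96.7. With the set of libraries also removed, the SD was 0.92 against a median of 0.35. In the liver it was 0.54 against 0.35, at percentile 84.3.

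Marker genes of 2 cell types known to make lysozyme moved in part with lysc. Of 10 tested macrophage markers, 10 had the higher mean in the posterior-like set, 2 of them without overlap. Over all 10401 features these counts were 4919 and 963. cd68, a lysosomal glycoprotein of macrophages, averaged 1103 CPM in the posterior-like and 771 CPM in the anterior-like libraries, and ctss2.1, a cathepsin S gene, 831 and 398 CPM in the same order. The summed macrophage list ran from 1921 to 3181 CPM in the posterior-like and from 1271 to 1938 CPM in the anterior-like libraries. In the high-frass against the control intestine all 10 were higher in the fit, and 0 of them passed an unadjusted p under 0.05. Their median log2 fold change was 0.59, against -0.00 over all features. In high against low frass all 10 were higher too, with a median of 0.71 against -0.03 over all features. There 3 markers were higher at an unadjusted p under 0.05, against 5.11% of all features.

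Of 8 tested neutrophil markers, 7 were higher in the posterior-like set, 3 without overlap, against 4919 and 963 of all 10401 features. Over the 8 markers, the median log2 ratio of the posterior-like to the anterior-like mean was 0.86, against -0.03 over all features, and 1 marker was lower in the posterior-like set. mpx, the myeloperoxidase of granules, differed by more than this median. It averaged 87.6 CPM in the posterior-like and 6.18 CPM in the anterior-like libraries. The summed list ran from 376 to 606 CPM in the posterior-like and from 152 to 325 CPM in the anterior-like libraries. By diet, the median log2 fold change of the 8 markers was 0.49 in high frass against control, with 0 at an unadjusted p under 0.05. In high against low frass the median was 0.92, with 4 markers higher at that p, against 5.11% of all features. In bulk tissue, fewer cells of a type and less RNA per cell cannot be told apart, and the part of either cell type in the lysc difference was not tested.

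Within the posterior-like set, mpx stood at 137 and 35.6 CPM in control replicates 1 and 4, at 80.4 CPM in low-frass replicate 3 and at 186, 28.9 and 57.8 CPM in high-frass replicates 1, 2 and 3. Control replicate 1 thus had the second highest mpx with 4.55 CPM of lysc, and high-frass replicate 2 the lowest mpx with 16.0 CPM of lysc. In the same libraries the summed neutrophil list was 443 and 376 CPM in the controls and 385 CPM in low frass. In high frass it was 606, 388 and 427 CPM. As for lysc, control replicate 4 was lowest and high-frass replicate 1 highest. Unlike for lysc, control replicate 1 lay above low-frass replicate 3 and high-frass replicates 2 and 3. The macrophage sums were 1921 and 2507 CPM in the controls, 1970 CPM in low frass and 2771, 2205 and 3181 CPM in high frass.

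Other marker lists were scanned for tissue carried over from nearby organs. Only 1 of 3 matched stomach genes, ghrl, the stomach hormone ghrelin, passed the filter in the intestine, and it was lower in the posterior-like set, at 0.23 against 12.4 CPM. The hepatocyte list was low, its sum reaching at most 207 CPM in an intestine library. However, its 13 tested genes had a median log2 fold change of 2.30 in high frass and 2.13 in low frass against control. The medians over all features were -0.00 and 0.03. At an unadjusted p under 0.05, 2 and 0 of the 13 were higher, against 1.81% and 0.413% of all features. All 6 tested genes of the exocrine pancreas had the lower mean in the posterior-like set, 0 of them without overlap. Over all features, 5482 of 10401 had the lower mean there. The pancreas sum ran from 21 to 48 CPM in the posterior-like and from 39 to 27404 CPM in the anterior-like libraries. It was highest in high-frass replicate 4 and lowest among the anterior-like libraries in control replicate 3. Whether these bear on lysc was not tested.

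The goose-type gene lyg had 3 rows for 3 transcripts that share exons, and such reads are dropped by the counting rule, so its counts are uncertain. Its main row had 0, 4, 6 and 19 counts in the control, 0, 2, 0 and 0 in the low-frass and 0, 23, 33 and 0 in the high-frass intestine. It had 2 counts in 1 control liver and 0 in each other liver library. A second row held 1 to 11 counts per intestine library, the third none, and none of the 3 passed the filter within a tissue. Unlike lysc, lyg was therefore too low for a diet comparison.

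Of the list of antibacterial effectors, 11 of 30 symbols were matched and 9 rows were tested in the intestine. In high frass against control 1 of the 9 was higher at an unadjusted p under 0.05, against 1.81% of all features. It was cldc1, a C-type lectin, with a log2 fold change of 1.3 (SE 0.28). Among the abundant members, mpeg1.1, the pore-forming perforin-2 of macrophages, had 0.17 (SE 0.37), mpx had 0.50 (SE 1.34) and pglyrp6, a peptidoglycan recognition protein, had -0.30 (SE 0.68). The list median was 0.17. The only chitin-degrading gene tested, ctbs, a lysosomal chitobiase, had 0.04 (SE 0.29).

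The 5 named genes whose intestinal profile was most like lysc, after the mean of each set was removed, were plek2 (r = 0.912), rhot1b (0.883), cidec (0.862), me1 (0.862) and csk (0.857), over 12 libraries that share their diets and pools. These r values describe likeness only. plek2 encodes a pleckstrin-family protein that binds membrane phospholipids and the actin cytoskeleton. It had 13.1, 9.60, 19.3 and 0.165 CPM in the high-frass intestine and 5.63, 0.0892, 0.329 and 2.47 CPM in the control intestine, in replicate order. Like lysc, plek2 was lower in high-frass replicate 4, an anterior-like library, than in the other high-frass libraries. Within the anterior-like set, however, lysc was highest in that library, while plek2 was higher in control replicate 3. cidec, a lipid droplet protein, averaged 9.2 CPM in the control, 12.2 CPM in low frass and 19.4 CPM in high frass. me1, the cytosolic malic enzyme that supplies NADPH for fatty acid synthesis, went the other way between the sets, with 102 CPM in the posterior-like and 344 CPM in the anterior-like libraries. rhot1b, a mitochondrial GTPase, and csk, a tyrosine kinase that restrains Src kinases, were low, with 0.283 to 1.15 CPM of rhot1b and 0.758 to 2.61 CPM of csk.

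**Figure D4:**
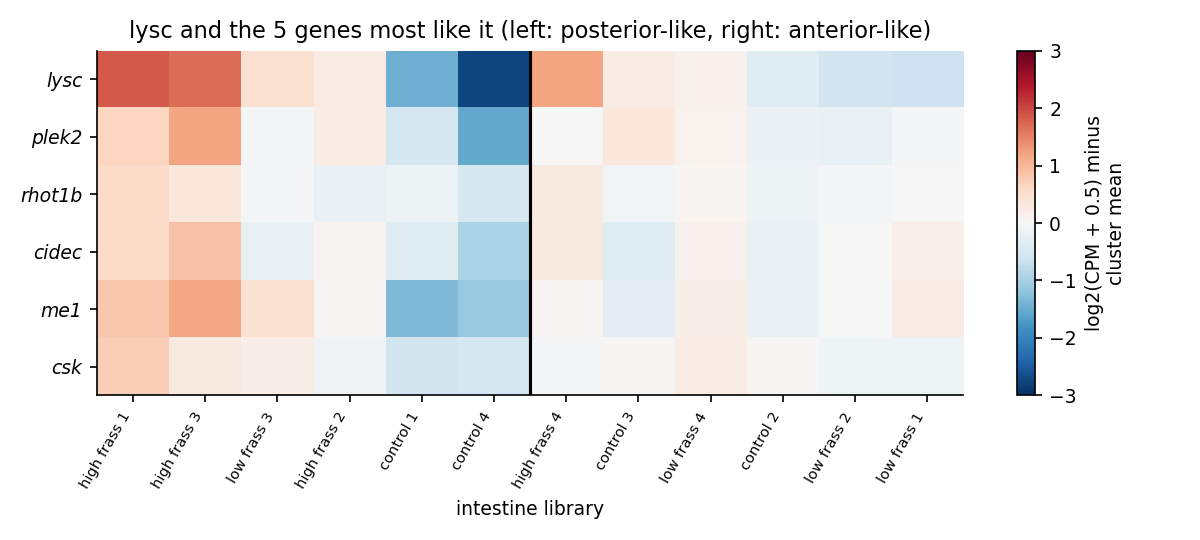
lysc and the 5 genes most like it in the 12 intestine libraries, as log2(CPM + 0.5) minus the mean of each gene in its set, with the posterior-like libraries left of the line and the anterior-like libraries right of it, each ordered by lysc. Within the posterior-like set, each of the 5 genes is lowest in control replicate 1 or 4, and lysc in control replicate 4. The genes were picked for likeness to lysc over these same libraries, so this is no separate result.

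In the liver, lysc had few counts. Control replicates 1 to 4 had 6, 9, 16 and 11 counts, low-frass replicates 1, 2 and 4 had 18, 3 and 8, and high-frass replicates 1, 2 and 4 had 13, 60 and 23. Scaled by TMM, these were 0.529, 0.647, 0.926 and 0.825 CPM in the control, 1.23, 0.198 and 0.559 CPM in the low-frass and 1.14, 3.81 and 1.65 CPM in the high-frass liver. The 3 high-frass libraries all lay above the 4 control libraries on this scale, whereas the raw counts overlapped, at 13 against 16. The same separation on the TMM scale held for 2.80% of the 7213 features tested. On library totals the lowest high-frass value was 0.981 CPM (exact 95% binomial interval 0.522 to 1.68). This was under the highest control value, 1.03 CPM (0.586 to 1.67).

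Mean lysc was 2.2 ± 1.42 CPM in the high-frass liver (SD, n = 3) and 0.732 ± 0.178 CPM in the control liver (SD, n = 4), a ratio of means of 3.00. The edgeR log2 fold change was 1.57 (SE 0.55), which ranked 11 from the top of 7213 features, with an edgeR adjusted p of 0.934. edgeR called 0 features, 0% of those tested. DESeq2 on all 3 diets called 5, lysc not among them (adjusted p = 0.680). An unadjusted p under 0.05 with a higher level in high frass was found in 2.04% of features. The exact permutation p was 0.0571, the smallest that 3 against 4 libraries can give. Replicate 2 carried much of the difference, with 35.9% of all 167 lysc counts in the fitted livers, and without it the value was 0.91 (SE 0.61).

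The low-frass liver averaged 0.662 ± 0.523 CPM (SD, n = 3) and the control liver 0.732 ± 0.178 CPM (SD, n = 4), with a log2 fold change of -0.16 (SE 0.60, edgeR adjusted p = 0.9997). The sign turned without low-frass replicate 2, to 0.27, and with all 12 libraries, to 0.57. The fit with all 12 libraries brings back low-frass liver replicate 3. Its hepatocyte sum was 903 CPM, against 217114 to 306743 CPM in the control livers. Against low frass, the high-frass liver had a log2 fold change of 1.74 (SE 0.61, edgeR adjusted p = 0.9998), where 1.05% of features were higher at an unadjusted p under 0.05. It was higher in 8 of 9 pairs, with an exact permutation p of 0.2. The value was 1.07 without high-frass replicate 2, 2.54 without low-frass replicate 1 and 0.89 with all 12 libraries. Adjusted over the 6 comparisons of lysc, the exact permutation p was 0.171 in the high-frass against control liver, 0.823 in the low-frass against control liver and 0.3 between the frass diets.

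Of the leukocyte markers, mpx averaged 0.146 CPM in the 10 fitted livers and was not tested. The summed neutrophil list ran from 1144 to 2151 CPM in the high-frass and from 992 to 3429 CPM in the control liver. Most of it was lect2.1, a secreted chemotactic factor, which averaged 2014 CPM over the fitted livers. In the liver, then, the sum follows mainly 1 gene and does not stand for the neutrophil list as a whole. The median log2 fold change of its 6 tested genes was 0.24 in high frass against control, with 0 at an unadjusted p under 0.05. The summed macrophage list ran from 164 to 177 CPM in the high-frass and from 156 to 173 CPM in the control liver. The median log2 fold change of its 7 tested genes was 0.10. Of these, 1 was higher at an unadjusted p under 0.05, against 2.04% of all features. Of the 4 most abundant antibacterial effectors, hepcidin (hamp), an iron-regulating peptide, had a log2 fold change of 1.94 (SE 1.08) in high frass against control, while cldc1 had 0.18 (SE 0.37), itln3, an intelectin, 0.56 (SE 0.34) and pglyrp6 -0.20 (SE 0.47). None of the 7 tested passed an unadjusted p under 0.05.

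Between the tissues, levels were set side by side as CPM of the library total. This choice matters, because TMM factors differed strongly, with geometric means of 1.86 in the intestine and 0.474 in the liver. Among the 10 pools with a fitted liver library, the intestine had the higher lysc in 9, with medians of 1.5 CPM in the intestine and 0.855 CPM in the liver. The exception was low-frass pool A1, where intestine and liver had 8 and 18 counts. The mean log2 difference over pools was 1.2 ± 1.76 (SD, n = 10), with an exact two-sided sign-flip permutation p of 0.0332. Both hold for library totals only. TMM scaling shifts intestine over liver by -1.97 on the log2 scale, which is larger in size than this mean. The span was wide. In high-frass pool A2 the intestine had 766 counts and the liver 13, a ratio of 58.5 between their CPM, whereas control pool A6 had 9 counts in each tissue.

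**Figure D5:**
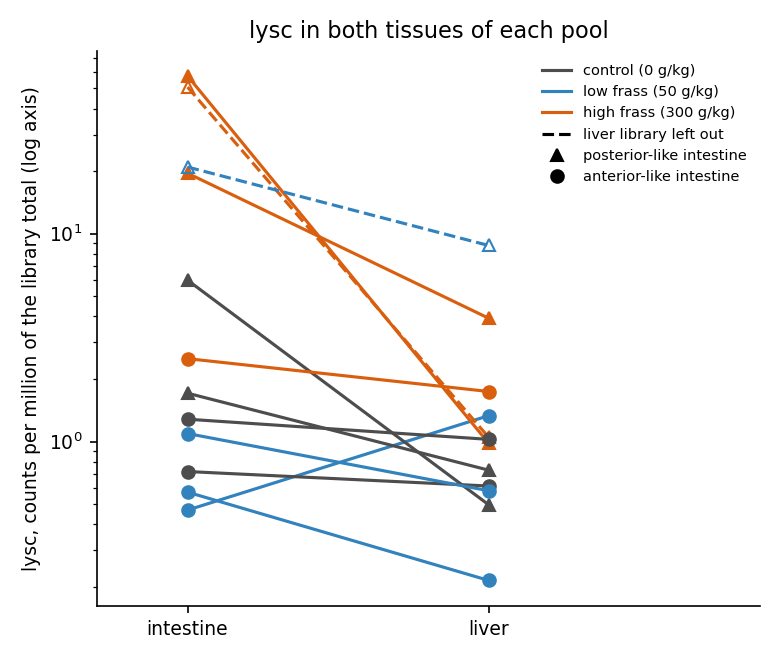
lysc in the intestine and liver of each of the 12 pools, as CPM of the library total on a log axis, coloured by diet, with dashed lines for the 2 pools whose liver library was left out. Lines fall to the liver in 11 of 12 pools. The intestine over liver ratio was 58.5 in high-frass pool A2, 4.98 in high-frass pool A8 and 12.03 in control pool A3, all with a posterior-like intestine. The other posterior-like pools had 48.4 (high-frass B1), 2.4 (low-frass B2) and 2.3 (control B10). Anterior-like low-frass pool A7 had 2.7.

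The edgeR fit over both tissues, scaled by TMM, gave intestine over liver a log2 fold change of 0.77 (SE 0.61, edgeR adjusted p = 0.254), in a comparison where 55% of 10895 features were called. With the pool as a block the value was -0.48 (SE 0.46, edgeR adjusted p = 0.358). With library totals in place of TMM, an alternative chosen after the data were seen, it was 2.87 (SE 0.69, edgeR adjusted p = 0.000585). The TMM factors alone shift this comparison by -1.97 on the log2 scale, so its size and its call depend on the scaling. Its sign was positive both with TMM and with library totals, and turned under TMM when the pool was a block. Without replicate 3 of both tissues the value was -0.12.

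An interaction term tested whether intestine and liver differed in the diet difference itself. For high frass the intestinal minus the liver log2 fold change was 2.14 (SE 1.45, edgeR adjusted p = 0.99996), and 2.75% of features had a positive interaction at an unadjusted p under 0.05. For low frass it was 1.51 (SE 1.51, edgeR adjusted p = 0.99995), with 1.59% of features positive by that measure. It turned to -0.77 with the pool as a block and to -1.46 without replicate 3, which holds the low-frass intestine library of 363 counts. A difference between the tissues in the response of lysc to frass was not detectable with these libraries.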

How the data were processed

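The deposited tables hold raw counts for 12 intestine and 12 liver libraries. Per the methods and processing notes, the authors trimmed poly(A)-selected reads (Trimmomatic 0.38), aligned them to Coco_2.0 (STAR 2.7.8a) and counted exons by parent, without strand, in union mode (HTSeq 0.9.0); the deposited counts were not normalised. RefSeq symbols were joined for 59187 of 63022 features. The gene, lists and tests were chosen with earlier results of these data known.

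Each tissue had 1 edgeR 4.0.16 quasi-likelihood fit of the 3 diets (R 4.3.3, TMM, default filter with a minimum count of 10), adjusted by Benjamini-Hochberg over all features tested. DESeq2 1.42.0 was an alternative, and the code was tested on simulated data. Library sets came from average linkage on log2 CPM. Named genes were every lysozyme gene, up to 4 most abundant tested members per list and the 5 symbols most like lysc; the neighbours, cldc1 in the intestine and the markers of the left-out liver were added after their values were seen. One gene that this rule names is not reported here.

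Replicate numbers did not pair libraries across diets. Pools tie the tissues together by their codes; deviations of the same pool correlated at -0.06 to 0.27 over 10 pools. Sampling intervals cover counting error only, and p-values measure the spread between pools. RT-qPCR was not analysed here.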

Additional observations from a re-analysis of the deposited data

Results flagged for a closer look

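Among groups of 4 libraries, the lowest or highest lysc value stood further from the others than Dixon's 95% limit allows in 2 cases. The limit was applied to CPM of the library total, not to log2 values. Chance gives about 1 such group in 20 only if the values are normally distributed, which was not tested. Low-frass intestine replicate 3 had 20.9 CPM of the library total, and its gap to the next library filled 0.97 of the range of the group. Low-frass liver replicate 3, from the same pool, had 8.78 CPM, with a gap of 0.87 of the range.

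That liver library entered the liver comparisons only in the alternative with all 12 libraries. Its 8.78 CPM of lysc (exact 95% binomial interval 7.31 to 10.5) exceeded the highest control liver, at 1.03. Its marker lists were far from those of the control livers, with a posterior gut sum of 13721 CPM against 953 to 1365 CPM, a hepatocyte sum of 903 CPM against 217114 to 306743 CPM and an exocrine pancreas sum of 300 CPM against 67847 to 122474 CPM. The posterior-like intestine libraries had posterior gut sums of 10929 to 13868 CPM and lysc of 1.71 to 57.4 CPM of the library total. Control replicate 3 of the anterior-like intestine had a posterior gut sum of 13584 CPM and lysc of 1.28 CPM of the library total. In the same liver library mpx stood at 21 CPM and cd68 at 1378 CPM, against means of 0.146 and 85.7 CPM in the 10 fitted livers. Its list sums and marker values are on the library total, those of the other libraries TMM-scaled.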

How the results depend on the processing

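The lysc direction held under all alternatives run for high frass against control and for high against low frass, in both tissues. Among the settings run here, DESeq2 on the 2 diets alone gave the only diet call of lysc, at 3.74 in the high-frass against control intestine. The study called lysozyme in the high-frass liver too, with an fdrtool adjustment that was not run here. Leaving out each replicate, the log2 fold change ran from 3.32 to 4.49 (high frass against control), from -1.36 to 2.07 (low frass against control) and from 2.01 to 5.09 (high against low frass) in the intestine, and from 0.91 to 1.88, from -0.96 to 0.27 and from 1.07 to 2.54 in the liver. For intestine over liver it ran from -0.12 to 1.1, and for the interactions from 1.54 to 2.79 (high frass) and from -1.46 to 3.53 (low frass). The tissue value was -0.48 with the pool as a replicate block and 2.87 on library totals, and the low-frass interaction -0.77 with the pool block. The low-frass liver value was 0.57 with all 12 libraries, which include low-frass liver replicate 3, set apart by its markers. The cause of these shifts was not tested, apart from the TMM shift of -1.97.

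Features called moved from 0 to 2, 1 and 12 in the intestine (high frass against control, low frass against control, high against low frass) and to 5 and 1 in the liver (high frass against control, high against low frass) with DESeq2 on 3 diets. With DESeq2 on 2 diets they were 8, 1 and 19 in the intestine and 6 and 10 in the liver. Without a filter, the liver counts were 133, 60 and 71. No diet comparison had a call when any 1 replicate was left out, and 5689 to 5923 features were called between tissues. On library totals 9567 were called between tissues.

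Replicates 1 and 2 carry pool letter A and replicates 3 and 4 letter B, whose meaning the labels do not give. With the letter as a block, lysc had 3.69, 0.98 and 2.72 in the intestine and 1.55, -0.18 and 1.73 in the liver, none called. Deviations of same-numbered libraries correlated at -0.71 to 0.52 in the intestine and -0.24 to 0.33 in the liver. With the number as a replicate block, lysc had 3.36, 0.36 and 3.00 in the intestine and 1.68, -0.02 and 1.70 in the liver, in the order above, none called, and 1 feature was called in high against low frass in the liver.

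A minimum of 10 counts in every library left no value for lysc. DESeq2 on 2 diets gave no p for lysc in the low-frass against control intestine. With 3 to 18 counts in most livers, small diet differences there were not detectable at this depth.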
